A study of Rattus norvegicus with 6 samples.

Results

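The genes described here are the nucleus-encoded subunits of the mitochondrial respiratory chain and of ATP synthase in cultured heart muscle cells of newborn rats. They were chosen by name alone, as the rows whose symbol starts with Nduf, Uqcr, Cox4 to Cox8 or Atp5, together with the 4 Sdh subunits, Cyc1 and Cycs. The rule took 99 of the 22250 rows of the deposited gene table, of which 45 belong to complex I, 4 to complex II, 10 to complex III, 22 to complex IV, 17 to complex V and 1 is cytochrome c. Ndufa4 and Ndufa4l2, named for complex I, are counted with complex IV, where Ndufa4 is now known to sit. All cells were wild type, came from digested hearts of 1-day-old Sprague-Dawley rats and grew in medium with serum. They were given 3Cl-HBA at 40 µM or its solvent DMSO for 48 h, with 3 libraries per treatment. 3Cl-HBA is 3-chloro-5-hydroxybenzoic acid, an agonist of the lactate receptor HCAR1, and the comparison addresses what this compound does to these cells. Whether the receptor was activated in them was not tested.

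The respiratory chain passes electrons from NADH and succinate to oxygen and uses the energy to pump protons out of the mitochondrial matrix. Complex I takes electrons from NADH, complex II from succinate, complex III hands them to cytochrome c, and complex IV delivers them to oxygen, while complex V, the ATP synthase, lets protons flow back to make ATP. Complex II is encoded in the nucleus alone, whereas each of the others also holds subunits encoded in mitochondrial DNA. Heart muscle is rich in mitochondria, and several complex IV subunits come in a heart and skeletal muscle form and in a form found in liver and most other tissues, with the heart forms known to gain ground around and after birth in rodents.

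Library totals were 13240800 to 17202191 reads, and every 3Cl-HBA library was deeper than every DMSO library. The summed level of 11 cardiomyocyte markers was 17842 to 19053 CPM, reads scaled to a common library size, in DMSO and 17722 to 18306 after 3Cl-HBA, and that of 7 fibroblast markers was 15170 to 16144 and 15304 to 15587. Myh6, the main cardiac myosin, made up 8457 ± 353 and 8429 ± 255 CPM of the cardiomyocyte sum. Of the 11 markers, 3 (27.3%) had an edgeR unadjusted p under 0.05 in the lower direction and none in the higher, against 2.59% and 2.52% of all tested genes. Those were the calcium release channel Ryr2 (log2 fold change -0.17), the fetal myosin Myh7 (-0.10) and the light chain Myl2 (-0.14), named after their values had been seen, and their part in the results below was not tested. Mean sums were lower for markers of smooth muscle and pericytes (2469 CPM in DMSO and 2462 after 3Cl-HBA) and of endothelium (530 and 531). Those of macrophages and leukocytes summed to 321 and 337 CPM. The cultures thus held RNA of heart muscle cells and of fibroblasts and, at lower levels, markers of these other types. In such bulk samples fewer cells of a type and less RNA per cell cannot be told apart. The 4 hepatocyte markers summed to at most 3.88 CPM in a library, and the albumin gene Alb had no read in 5 libraries and 2 in the other, so the name liver isoform below is that of the gene and not of a cell type present. Nothing states that the 3 libraries of a treatment came from separate cultures or animals, so p-values measure only the spread between these samples, which may be technical.

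Of the 99 rows, 93 had enough reads to be tested among 13903 genes, and these were mostly abundant. Levels of different genes are compared on FPKM, the authors' read counts divided by gene length and library total. The median tested member lay at percentile 96.2 of the tested genes by FPKM, 87 members lay above the median gene, and 68 lay above percentile 90. Their transcripts were short, with a median gene length of 731 bases against 2416 for all tested genes. The 6 untested rows included the complex I accessory subunit Ndufa1 with 0 to 3 reads per library and the heart isoform Cox7a1 with 0 to 4. Also untested were the testis isoforms Cox8c with 0 to 2 and Cox7b2 with 0 or 1. The copies Cox6c-ps1 and Ndufa10l1 on chromosome 6 had no read in any library. The Ndufa1 row, 213 bases long, matched no RefSeq symbol. How its reads were counted is not given, so the level of Ndufa1 is uncertain.

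**Figure D1:**
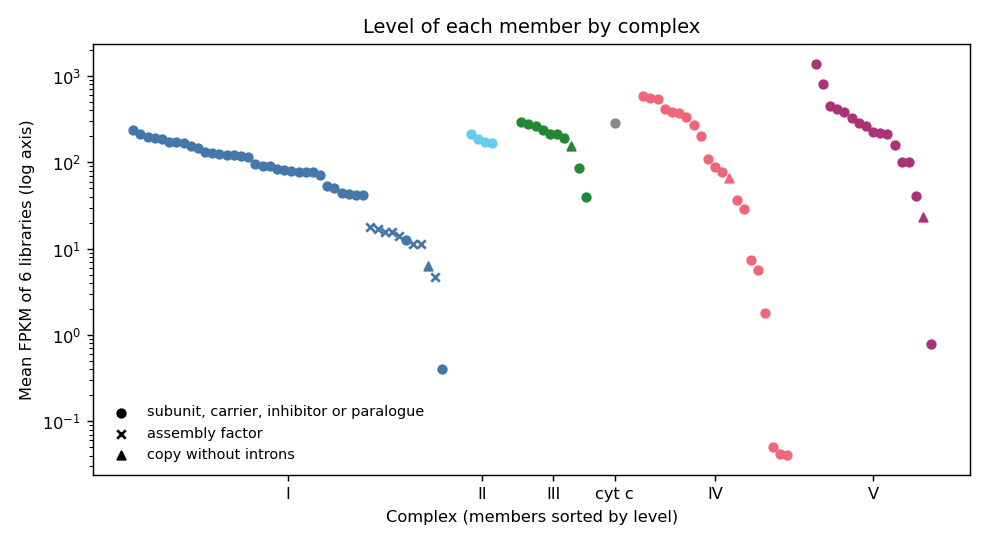
Mean FPKM over 6 libraries, on a log axis, of each member with at least 1 read, sorted within its complex. Atp5f1b at 1398 and Atp5f1a at 807 lead, and complex II lies in a narrow band between 169 and 213. Complex I assembly factors lie below its subunits except for Ndufa12 and for Ndufa1, whose level is uncertain.

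Complex I was the largest group, and its parts lay at different levels. The 7 core subunits that the nucleus encodes, which carry the flavin and iron-sulfur centres, had a median of 130 FPKM, with Ndufs7 the lowest at 78.1. Ndufs1, the largest subunit, stood at 174 ± 5.42 (SD over 6 libraries) and Ndufv1, which binds NADH, at 130.4 ± 7.5. The 27 tested accessory subunits, which surround the core, had a median of 96.0 and ran from Ndufa12 at 12.7 to Ndufb4 at 238 ± 10.1. The 8 assembly factors of the Ndufaf series, which help build the complex but do not stay in it, had a median of 14.8 and ran from Ndufaf2 at 4.73 to Ndufaf8 at 17.7. Ndufaf8 thus lay below each tested subunit of complex I but Ndufa12.

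After 3Cl-HBA, 21 of the 43 tested complex I rows lay above their DMSO level and 22 below, with a median log2 fold change (3Cl-HBA minus DMSO) of -0.00092. None passed the test at an adjusted p of 0.05, and the same was true of all 93 members and of all 13903 genes, a background of 0%. The test was edgeR's quasi-likelihood test with Benjamini-Hochberg adjustment over all tested genes. It gave an unadjusted p under 0.05 for 711 genes, while DESeq2 called 0 genes with 405 such p-values and limma-voom called 0 genes with 704.

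Ndufc2, an accessory subunit of the membrane arm at chr1:162369801-162376023 of the deposited coordinates, whose build is not named, was the complex I member with the smallest p. It had 979, 1210 and 969 reads in DMSO, against 1257, 1494 and 1395 with 3Cl-HBA, or 70.0, 83.2 and 73.4 CPM against 85.6, 87.3 and 88.8. Every treated library lay above every DMSO library, although DMSO library 2 came within a few CPM of the lowest treated library. The log2 fold change was 0.21 (SE 0.06, 95% interval 0.08 to 0.34), with an edgeR unadjusted p of 0.0021 and an adjusted p of 0.91. Over the alternative settings its adjusted p ran from 0.417 to 0.99999. In the other direction Ndufb2, another accessory subunit of the membrane arm, had the smallest p of complex I. It had 35.6, 38.7 and 36.7 CPM in DMSO, against 39.0, 31.1 and 31.4 with 3Cl-HBA, so the treated group held both its highest and its lowest library, with an edgeR unadjusted p of 0.13.

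The core subunits Ndufs1 and Ndufv1 overlapped between groups. For Ndufs1 the CPM were 430.3, 448 and 431 in DMSO, against 443, 420.0 and 417 with 3Cl-HBA. Ndufv1 had 211, 214 and 219 CPM in DMSO, against 225, 194 and 201 with 3Cl-HBA. The treated group held the lowest library of both genes and, for Ndufv1, also the highest. Of the assembly factors, 4 lay above and 4 below their DMSO level, with log2 fold changes from -0.14 to 0.22 and a median of -0.0054.

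The 4 subunits of complex II, the succinate dehydrogenase that also works in the citric acid cycle, lay closer together than those of any other complex. Sdha, the flavoprotein that oxidises succinate, had 213 ± 6.21 FPKM (SD, n = 6). Sdhd and Sdhc, which anchor the enzyme in the membrane, had 185 ± 4.95 and 174 ± 2.81, and the iron-sulfur subunit Sdhb had 169 ± 7.57. The highest was 1.26-fold above the lowest, against 7.29-fold among the 10 rows of complex III and more among the tested rows of the others. The lowest tested rows were the assembly factor Ndufaf2 in complex I and the Uqcrb gene in complex III. In complex IV it was the paralogue Ndufa4l2 and in complex V the subunit Atp5pb. The levels of Uqcrb and Atp5pb are uncertain, as given below. By library, Sdha had 480, 484 and 503 CPM in DMSO, against 491, 462 and 487 with 3Cl-HBA, and Sdhb had 160, 172 and 159 against 174, 158 and 169. Sdhc had 193, 196 and 203 CPM against 200.2, 201 and 202, and Sdhd 223, 219.8 and 231 against 233, 219.9 and 228. The groups overlapped for all 4 genes, whose log2 fold changes ran from -0.03 to 0.03. Each 95% interval lay within 1.25-fold in either direction.

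Complex III subunits other than the split gene Uqcrb lay between Uqcrq at 85.5 FPKM and Uqcrfs1, the Rieske iron-sulfur protein, at 290.1 ± 7.81. This order depends on the gene lengths used. By CPM, Uqcrq with 1494 bases lay above Uqcr10 with 410, at 126 against 83.1 in DMSO and 129 against 72.9 with 3Cl-HBA. Cytochrome c1, Cyc1, which passes electrons to cytochrome c, stood at 278 ± 11.1, and the scaffold subunit Uqcrc1 at 214 ± 11.4. Cytochrome c itself, Cycs, the carrier between complexes III and IV, stood at 283 ± 21.8, close to Cyc1. Uqcrfs1 had 316, 305 and 327 CPM in DMSO, against 317, 305 and 319 with 3Cl-HBA. Uqcrc1 had 332, 342 and 372 CPM against 363, 333 and 328, and Cyc1 316, 341 and 334 against 348, 318 and 333. Cycs had 335, 364 and 303 CPM against 372, 328 and 332, a wider spread within each treatment than for Uqcrfs1. Groups overlapped in all 4, and 5 of the 10 complex III rows lay above and 5 below their DMSO level.

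Uqcr10, a small subunit of complex III at chr14:84935486-84937725, was the member with the smallest p in the lower direction. It had 1174, 1263 and 1037 reads in DMSO, against 1062, 1183 and 1212 with 3Cl-HBA, which the deeper treated libraries turn into 84.0, 86.9 and 78.6 CPM against 72.4, 69.1 and 77.1. All 3 treated libraries lay below all DMSO libraries, by a narrow margin between the nearest ones. The log2 fold change was -0.19 (SE 0.06, 95% interval -0.32 to -0.06), with an edgeR unadjusted p of 0.0039 and an adjusted p of 0.96, and the adjusted p ran from 0.278 to 0.99999 over the alternatives. No neighbour in the complex moved by as much in that direction, since the next lowest, Uqcrc1, had a log2 fold change of -0.03.

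Uqcrb, which helps bind ubiquinone in complex III, has 2 rows, the gene on chromosome 7 and a copy without introns on chromosome 1, and the copy took most of their reads. It held 64.9%, 63.1% and 64.5% of the reads of both rows in DMSO, against 61.0%, 67.6% and 64.3% with 3Cl-HBA. The gene stood at 39.8 ± 2.34 FPKM and the copy at 155 ± 12.0. How the authors' counting divided reads between near-identical sequences is not given in the sources used here. The level of either row is therefore uncertain. The copy had the smallest p of complex III in the higher direction, with a log2 fold change of 0.09 and an edgeR unadjusted p of 0.20. For Cox6b1 and Ndufv3 the copies took smaller shares, 6.16% to 8.04% and 2.25% to 3.67%.

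Complex IV showed the widest set of isoforms, and its heart and liver forms did not follow a common order. Levels and ratios of isoforms here are those of whole cultures, which also held fibroblast RNA, and not of heart muscle cells alone. The part of each cell type in them was not tested. Cox6a2, the heart and muscle form of subunit VIa, and Cox6a1, its liver form, were the 2 most abundant members of the complex by mean FPKM. Cox4i1, at 548 ± 31.8, lay close to Cox6a1, at 557 ± 30.0, and the order of these 2 genes changed between libraries. Cox6a2 (chr1:199624037-199624783) had 569, 573 and 604 FPKM in DMSO, against 548, 554 and 641 with 3Cl-HBA. Cox6a1 (chr12:47024442-47027495) had 527, 569 and 572 in DMSO, against 580.2, 511 and 580.3 with 3Cl-HBA. The ratio of the heart to the liver form was 1.08, 1.01 and 1.06 in DMSO, against 0.944, 1.08 and 1.10 with 3Cl-HBA. In 5 of 6 libraries the heart form was slightly higher, and the 2 levels overlapped over the 6 libraries. The Cox6a1 row overlaps the row Gatc on the same strand, and how reads there were assigned is not given in the sources used here. The log2 ratio differed between treatments by -0.0074, with an exact two-sided permutation p of 1, where 0.1 is the smallest p that 3 against 3 libraries allow.

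For subunit VIII the liver form was the main one in these mixed cultures. Cox8b, the heart and muscle form at chr1:213648787-213650247, had 135, 125 and 116 reads in DMSO, against 156, 151 and 140 with 3Cl-HBA, or 30.3, 27.0 and 27.5 FPKM against 33.5, 27.5 and 27.9. Cox8a, the liver form at chr1:222466575-222468896, had 399, 431 and 446 FPKM in DMSO, against 441, 360.1 and 406 with 3Cl-HBA. Cox8b was 14.3-fold below Cox8a on average, and no library of Cox8b came near one of Cox8a. Cox8a had the smallest p of complex IV in the lower direction, with an edgeR unadjusted p of 0.18 and a log2 fold change of -0.08. The change of the Cox8b to Cox8a log2 ratio was 0.15 (exact two-sided permutation p of 0.3, adjusted over 7 tested ratios 0.7).

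For subunit VIIa the row of the heart form held almost no reads. Cox7a1 (chr1:91071493-91074294) had 1, 0 and 1 reads in DMSO, against 1, 4 and 0 with 3Cl-HBA, and a library with 0 reads allows up to 3. The liver form Cox7a2, which the table carries under the symbol Cox7a2l2 and which was matched by its Entrez identifier, had 492, 568 and 609 reads in DMSO, against 627, 675 and 762 with 3Cl-HBA. On the FPKM scale Cox7a1 averaged 0.05 and Cox7a2 87.5 ± 10.2. The ratio was not tested because Cox7a1 had fewer than 10 reads per library. A further row described as similar to the heart form, LOC687508, had 2 reads in DMSO library 3 and none in the other libraries. How reads were divided between such rows was not tested, and the level of Cox7a1 is uncertain. Cox7a2 is among 12 tested members that overlap a row on the other strand, and without the strand setting of the counting the reads of the 2 cannot be told apart. Cox7a2l, which joins complexes III and IV into supercomplexes, stood at 109.5 ± 6.65.

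**Figure D2:**
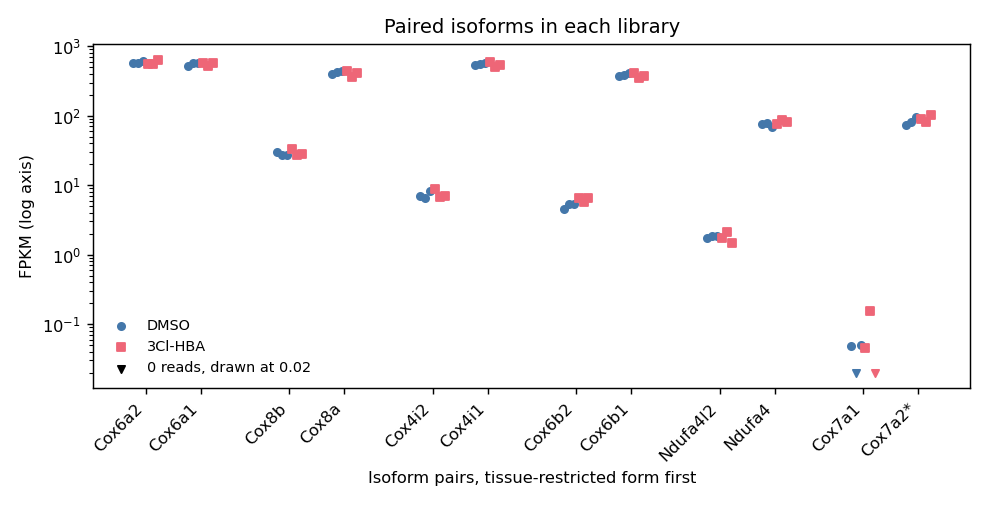
FPKM in each library, on a log axis, of 6 isoform pairs with the tissue-restricted form first, as circles for DMSO and squares for 3Cl-HBA, and triangles for 0 reads. Cox6a2 and Cox6a1 share a level, with means of 581 and 557, Cox8b lies 14.3-fold below Cox8a, and Cox7a1 lies at or near 0 beside Cox7a2 (marked with a star, symbol Cox7a2l2 in the table).

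Upstream sequences were compared for these isoforms. RefSeq gives the 250 bases before the start of the gene, here of build GRCr8 and on the gene's strand, 5′ to 3′, for Cox6a2 (chr1:192219717-192219966, minus strand), Cox8b (chr1:205408274-205408523, minus strand), Cox8a (chr1:213833624-213833873, minus strand) and Cycs (chr4:80984768-80985017, minus strand). They are shown because the first 3 belong to isoforms described above and because Cycs holds an NRF1 core. No upstream sequence was available for Cox6a1. The part of these sequences in the isoform levels was not tested. Capitals mark exact matches, on either strand, to the MEF2 site CTAAAAATA and the E-box CAGCTG in Cox6a2, to the E-box in Cox8b, to the GABP/ETS core CCGGAAGT (reverse ACTTCCGG) in Cox8a and to the NRF1 core GCATGCGC in Cycs.
Cox6a2: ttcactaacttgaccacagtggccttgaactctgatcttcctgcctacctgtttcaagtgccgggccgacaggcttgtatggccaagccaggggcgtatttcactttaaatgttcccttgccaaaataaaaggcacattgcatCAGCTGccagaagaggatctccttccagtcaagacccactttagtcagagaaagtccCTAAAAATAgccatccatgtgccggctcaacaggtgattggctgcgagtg
Cox8b: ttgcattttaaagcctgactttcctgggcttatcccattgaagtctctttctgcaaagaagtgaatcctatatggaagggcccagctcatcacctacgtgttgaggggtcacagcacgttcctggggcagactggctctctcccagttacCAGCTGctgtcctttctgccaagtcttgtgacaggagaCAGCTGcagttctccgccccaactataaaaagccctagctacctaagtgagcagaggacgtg
Cox8a: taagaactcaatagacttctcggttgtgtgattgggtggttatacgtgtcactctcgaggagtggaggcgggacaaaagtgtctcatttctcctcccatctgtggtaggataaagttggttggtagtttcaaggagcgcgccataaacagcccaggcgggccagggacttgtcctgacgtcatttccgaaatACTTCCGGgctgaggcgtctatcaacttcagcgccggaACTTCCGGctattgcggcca
Cycs: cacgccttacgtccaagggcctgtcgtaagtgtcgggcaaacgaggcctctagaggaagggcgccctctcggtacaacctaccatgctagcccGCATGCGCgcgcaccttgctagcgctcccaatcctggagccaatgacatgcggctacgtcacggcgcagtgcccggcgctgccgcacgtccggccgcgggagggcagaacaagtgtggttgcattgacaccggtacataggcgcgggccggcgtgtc
Here the heart forms Cox6a2 and Cox8b hold E-boxes, the sequence that muscle regulatory factors of the bHLH family bind, and Cox6a2 holds a site of the kind bound by the muscle factor MEF2. The heart form Cox7a1 holds no match to the searched motifs in its 250 bases, and only an E-box after the start. Its liver form Cox7a2 holds no match in the searched window. The E-box is not particular to heart forms. It was found in 13 of 77 searched members (16.9%), among them the ubiquitous Cox4i1, against 15.1% of all promoters. The liver form Cox8a holds 2 GABP/ETS cores, of the kind bound by nuclear respiratory factor 2.

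Of the 99 members, 91 had an Entrez identifier in a RefSeq table and 78 had an upstream sequence there, of which 77 were searched, leaving out the 1 of Atp5f1c, whose identifier is that of Taf3, along with 27457 promoters in all, over windows of 250 bases before to 50 after the start. The NRF1 core GCATGCGC, which binds nuclear respiratory factor 1, was found in 12 members, or 15.6%, against 2.66% of all promoters. The holders included Cycs, Sdhb, Uqcrc1, Ndufa6, Atp5mc2 and Atp5po. The YY1 core AAGATGGCG was found in 10 members (12.99%) against 1.93%, the GABP/ETS core in 8 (10.4%) against 4.01%, and the ERR site TCAAGGTCA, for estrogen-related receptors, in Atp5mc3 and Sdhd (2.6%) against 0.412%. The MEF2 site was found in 1 member against 0.517% of all promoters, and the E-box in 13 (16.9%) against 15.1%. The last 2 motifs were added after the sequences of the heart isoforms had been seen. Both strands were read. No match of a motif overlapped a match of another motif in a member, while the NRF1 core matched on both strands at overlapping positions in 6 of its 12 members. A match describes letters in a window and not a bound site.

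The remaining pairs each had a rare and an abundant form. Cox4i2, the lung form that hypoxia raises, was 74.2-fold below the ubiquitous Cox4i1, at 7.42 ± 0.979 FPKM against 548 ± 31.8. Cox6b2, a testis form, was 68.0-fold below Cox6b1. Ndufa4l2, a hypoxia-inducible paralogue of the complex IV subunit Ndufa4, was 43.8-fold below it. The testis form Cox7b2 had 1 read in 3Cl-HBA library 2 and none elsewhere, while Cox7b had 231 to 276 reads per library. Among the nuclear subunits without a second form in the table, Cox5a stood at 374 ± 18.0 FPKM and Cox5b at 273 ± 38.0.

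Cox6b2 was the only complex IV member whose groups did not overlap. It had 30, 36 and 33 reads in DMSO, against 45, 46 and 49 with 3Cl-HBA, or 2.1, 2.5 and 2.5 CPM against 3.1, 2.7 and 3.1. The log2 fold change was 0.31 with a 95% interval from -0.20 to 0.83 and an edgeR unadjusted p of 0.23, so the difference was not detectable at this depth. Its log2 ratio to Cox6b1 was higher by 0.36, with every treated library above every DMSO library, an exact two-sided permutation p of 0.1, the smallest possible, and 0.7 after adjustment over the 7 tested ratios. Cox6c, a small subunit of complex IV, had the smallest p of the complex in the higher direction. Its CPM were 143, 147 and 149 in DMSO, against 160, 147 and 166 with 3Cl-HBA, with 3Cl-HBA library 2 level with DMSO, and the edgeR unadjusted p was 0.057.

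The other complex IV members overlapped between groups. Cox5b spread most among the abundant ones, with 139, 122 and 123 CPM in DMSO, against 164, 132 and 112 with 3Cl-HBA, so the treated group held both extremes and its 95% interval ran from -0.36 to 0.52 in log2. Cox4i1 had 397, 398 and 420 CPM in DMSO, against 427, 364 and 396 with 3Cl-HBA, and Cox5a had 221, 234 and 218 against 236, 209.7 and 229. Ndufa4 had 59.0, 62.2 and 55.0 CPM in DMSO, against 58.5, 69.0 and 64.7 with 3Cl-HBA, and it overlaps Phf14 on the other strand. Over complex IV, 10 of 18 tested rows lay above and 8 below their DMSO level, with a median log2 fold change of 0.0034.

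Complex V held the most abundant members. Atp5f1b, the catalytic beta subunit of the F1 head at chr7:2504695-2511749, had 1368, 1414 and 1423 FPKM in DMSO, against 1485, 1306 and 1393 with 3Cl-HBA. Atp5f1a, the alpha subunit, had 778, 804 and 850.0 against 838, 773 and 801. For both genes the treated libraries spanned the DMSO mean, and the log2 fold changes were -0.0056 (95% interval -0.09 to 0.08) and -0.0099 (-0.10 to 0.08). The inhibitor Atp5if1, which stops the enzyme from running backwards and splitting ATP, had 106, 103 and 117 CPM in DMSO, against 112.5, 114 and 112.6 with 3Cl-HBA. In that gene the 3 treated libraries lay within the DMSO range.

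Atp5mc1, Atp5mc2 and Atp5mc3 encode the same c subunit of the proton-driven rotor, and they shared its transcripts in near-constant proportions. Atp5mc3 gave 38.7%, 40.3% and 37.9% of their summed reads per length in DMSO, against 39.6%, 38.1% and 37.3% with 3Cl-HBA, and Atp5mc1 gave 33.9%, 32.8% and 35.5% against 33.7%, 34.7% and 35.0%. Atp5mc2 gave the remainder, 26.6% to 27.6%. The order Atp5mc3, Atp5mc1, Atp5mc2 held in all 6 libraries. The log2 ratios to Atp5mc3 changed by 0.04 for both other genes, with exact two-sided permutation p-values of 0.6 for Atp5mc1 and 0.4 for Atp5mc2, each 0.7 after adjustment. Atp5mc3 had the smallest p of complex V in the lower direction and the membrane subunit Atp5mf in the higher one, with edgeR unadjusted p-values of 0.14 and 0.31.

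Atp5pb, subunit b, was listed at only 0.78 FPKM, with 14 to 35 reads per library. Subunit b is an essential part of the stalk that holds the head in place. A row named LOC100911417, which the RefSeq table gives as Atp5pb by its Entrez identifier, had 126, 62 and 67 reads in DMSO, against 70, 49 and 151 with 3Cl-HBA. A row named LOC679739 likewise carries the identifier of the complex I subunit Ndufs6 and had 2 to 18 reads. How reads were divided between such rows was not tested, and the levels of Atp5pb and Ndufs6 are uncertain. The row Atp5f1c, the gamma subunit, is 7359 bases long and carries the identifier of Taf3, and at 40.8 FPKM its level per length is uncertain too. For Cycs, the copy LOC100363502 took a further 457 to 624 reads per library beside 4004 to 5621 of the gene. Over complex V, 6 of 17 rows lay above and 11 below their DMSO level, with a median log2 fold change of -0.0099.

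Over all complexes, 46 tested members lay above and 47 below their DMSO level, and the median log2 fold change was -0.00026, against -0.00052 over all tested genes. An unadjusted p under 0.05 was found for 1 member in the higher direction (1.08% of members, Ndufc2) and 1 in the lower (1.08%, Uqcr10), against 2.52% and 2.59% of all tested genes. Groups did not overlap for 3 members in the higher direction (3.23%; Cox6b2, Ndufa8 and Ndufc2) and for 2 in the lower (2.15%; Atp5md and Uqcr10), against 5.24% and 5.22% of all genes. Atp5md, a copy without introns, had 102 to 116 reads per library, and Ndufa8, an accessory subunit of complex I, 580 to 801. On the other strand Atp5md overlaps Wnk4 and Ndufa8 overlaps Morn5, so reads of the overlapping rows cannot be told apart. With all 6 libraries, none of these 4 shares was above the background. Leaving out 1 library changed that for the counts at an unadjusted p under 0.05. Higher members were 5 without DMSO library 3 (5.38% against 3.08% of all genes tested in that fit) and 3 without 3Cl-HBA library 1 (3.23% against 2.504%). They were 2 (2.15%) without DMSO library 2, 3Cl-HBA library 2 or 3Cl-HBA library 3, against 2.72%, 2.02% and 1.97% of all genes. Lower members were 6 without 3Cl-HBA library 1 (6.45% against 2.60%), 4 without DMSO library 1 (4.30% against 1.90%) and 2 without DMSO library 3 (2.15% against 3.76%). The median log2 fold change of the members was -0.033 without 3Cl-HBA library 1 and -0.033 without DMSO library 1, and it was 0.033 without 3Cl-HBA library 2 and 0.025 without DMSO library 3.

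The 95% intervals give the precision of these comparisons. For 79 of the 93 tested members (84.9%) the interval lay within 1.25-fold of no change in either direction, against 59.6% of all tested genes. It lay within 1.5-fold for 88 members (94.6% against 80.9%) and within 2-fold for all 93 (against 92.3%). The median absolute log2 fold change was 0.04 for members and 0.07 for all genes, and members had more reads than most genes. Widest were the intervals of the low members Atp5pb, with 14 to 35 reads per library, Ndufa4l2, with 22 to 34, and the Ndufv3 copy.

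**Figure D3:**
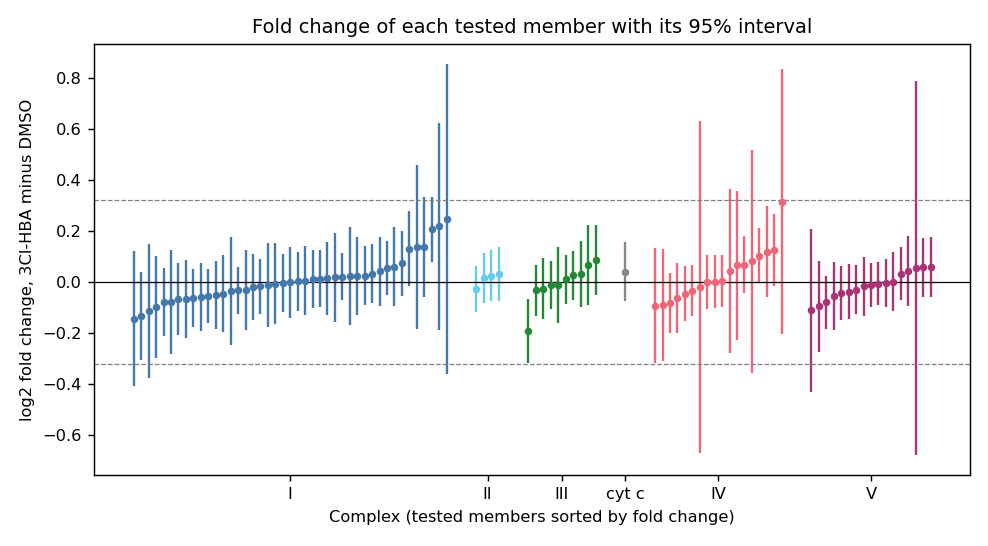
log2 fold change, 3Cl-HBA minus DMSO, of each of 93 tested members with its 95% interval from edgeR, sorted within its complex, with dashed lines at 1.25-fold in either direction. Intervals of 79 members lie between the dashed lines, that of Ndufc2 lies above 0 and that of Uqcr10 below 0.

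The members shifted together between libraries of the same treatment. Relative to the mean of the 6 libraries, 77 of 93 members lay lower in DMSO library 1 and 71 in 3Cl-HBA library 2, with median log2 deviations of -0.059 and -0.060. In DMSO library 3, 69 members lay higher and in 3Cl-HBA library 1, 70 did, with medians of 0.050 and 0.070, and the 2 other libraries were near 0. Each treatment thus held a library with low and a library with high values, and the summed CPM of all 99 rows were 15105, 15730 and 16115 in DMSO, against 16259, 14938 and 15645 with 3Cl-HBA. The means were 15650.0 ± 510 and 15614 ± 661 (SD, n = 3), a difference smaller than either spread.

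Other short genes moved in the same libraries. Over all 1330 tested genes of up to 1000 bases, a set chosen after the shift had been seen, the medians were -0.042 in DMSO library 1, 0.030 in DMSO library 3, 0.054 in 3Cl-HBA library 1 and -0.039 in 3Cl-HBA library 2. With each library's trend on gene length removed, the member medians in these libraries were -0.022, 0.025, 0.023 and -0.037. The part of gene length in the shift was not tested further. The 13 mitochondrially encoded genes were ordered otherwise across libraries. Their summed CPM were 69367, 70099 and 68933 in DMSO, against 67987, 77460 and 72170 with 3Cl-HBA, highest in 3Cl-HBA library 2, where the nuclear sum was lowest.

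**Figure D4:**
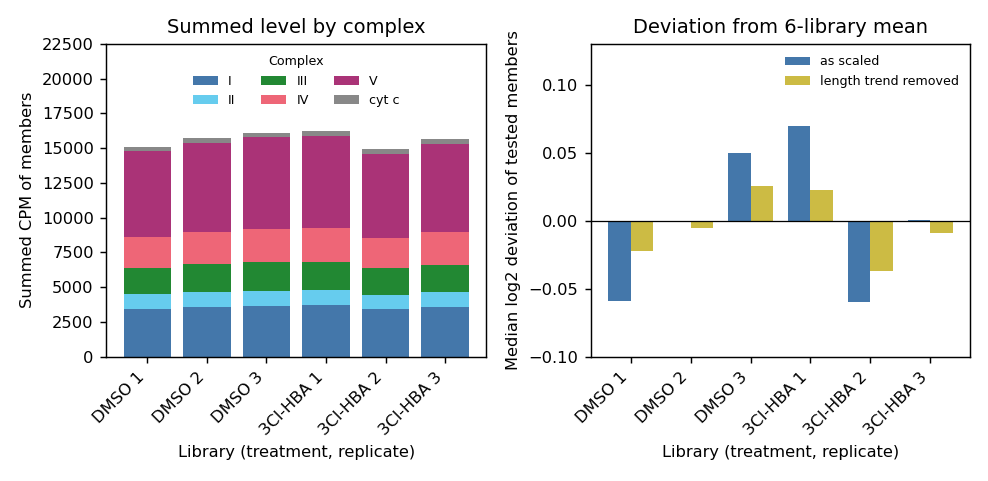
Left, summed CPM of the members in each library, stacked by complex; right, the median log2 deviation of the 93 tested members from the 6-library mean, as scaled and with the length trend removed. Members lie low in DMSO 1 and 3Cl-HBA 2 and high in DMSO 3 and 3Cl-HBA 1, so each treatment holds a low and a high library.

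Genes that build or regulate the chain, none of them taken by the rule, gave the same count of 0 called. Of 46 tested assembly factors, 21 lay above and 25 below their DMSO level, with a median log2 fold change of -0.0076 and a median of 16.2 FPKM, near that of the Ndufaf series. All 3 tested assembly factors of complex II lay below, with log2 fold changes from -0.13 to -0.09. Sdhaf2, which attaches the flavin to Sdha, had the smallest p among them, at 72.2 ± 4.42 CPM in DMSO and 66.1 ± 1.7 after 3Cl-HBA (edgeR unadjusted p of 0.058). The 9 regulators of mitochondrial genes, such as Ppargc1a, Nrf1 and Tfam, had a median of -0.0067, with 4 above and 5 below. Of the 13 mitochondrially encoded subunits, 12 lay above and 1 below their DMSO level, with a median log2 fold change of 0.07, and their sum was highest in 3Cl-HBA library 2 as given above. With these subunits, the list of partners held 68 tested genes, of which 3 had an unadjusted p under 0.05 in the higher direction and none in the lower, or 4.41% and 0% against 2.52% and 2.59% of all tested genes. Those were the complex IV subunit Mt-co2 (log2 fold change 0.11, edgeR unadjusted p of 0.0072), the complex V subunit Mt-atp6 (0.13, p of 0.0073) and Gabpa, a subunit of nuclear respiratory factor 2 (0.14, p of 0.032), each with an adjusted p of 0.96 and the last 2 named after their values had been seen. Gabpa overlaps the member Atp5pf on the other strand, so reads of the 2 cannot be told apart.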

How the data were processed

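RNA-seq was analysed from 3 DMSO and 3 3Cl-HBA libraries, made after removal of ribosomal RNA, per the labels' protocols. The deposited table gives whole-number read counts per gene, not normalised, and the authors' FPKM, that is the count divided by gene length and library total. The authors' gene lengths, in bases, are per the file headers. Not given in the sources used here: aligner, counter, strand setting, build and annotation. The labels' protocols name DESeq2.

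The 99 rows were taken by name. Members, lists and tests were chosen with earlier results of these data known. Counts of all genes were fitted with edgeR 4.0.16 under R 4.3.3 (scaling by TMM, filterByExpr with a minimum count of 10, robust quasi-likelihood fit, no block). This kept 13903 genes, with p-values adjusted by Benjamini-Hochberg over all of them and calls made at 0.05. Alternatives were limma-voom (limma 3.58.1), DESeq2 1.42.0, other scalings, no filter, a replicate block, a length offset and each library left out. Intervals are at 95%. CPM use TMM-scaled totals. Isoform ratios used counts per length, with an exact permutation test over libraries where both forms had at least 10 reads in each. The named genes were the isoform pairs, the c subunits, a fixed set of main subunits, the inhibitor, and per complex the highest and lowest by FPKM and the smallest p in each direction; others were named after their values were seen. Titin was not analysed here. For 1 of the fixed subunits no value is reported here. Promoters were RefSeq's, build GRCr8, with exact motif matches.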

Additional observations from a re-analysis of the deposited data

How the results depend on the processing

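No member was called under any alternative run: DESeq2 size factors, library totals, no filter, DESeq2, limma-voom, the length offset, the replicate block or each library left out. The median log2 fold change of the members moved by less than the spread between libraries, to -0.0101 with the length trend removed and from -0.033 without 3Cl-HBA 1 to 0.033 without 3Cl-HBA 2, which changed its sign. With no filter on low counts 2 genes were called in the whole table. Leaving out 1 library gave 0 to 8 called genes, namely 8 without DMSO 3, 3 without 3Cl-HBA 3, 2 without 3Cl-HBA 2, 1 without DMSO 2 and 0 without DMSO 1 or 3Cl-HBA 1. Members with an unadjusted p under 0.05 in the higher direction were 2 with no filter and 2 with the length trend removed, and 1 to 5 with 1 library left out (1 without DMSO 1, 2 without DMSO 2, 3Cl-HBA 2 or 3Cl-HBA 3, 3 without 3Cl-HBA 1, 5 without DMSO 3). In the lower direction they were 1 to 6 (6 without 3Cl-HBA 1, 4 without DMSO 1, 2 without DMSO 3 and 1 otherwise). The share of members was above that of all genes for the higher count without DMSO 3 (5.38% against 3.08%), 3Cl-HBA 1 (3.23% against 2.504%), 3Cl-HBA 2 (2.15% against 2.02%) and 3Cl-HBA 3 (2.15% against 1.97%). For the lower count it was above it without 3Cl-HBA 1 (6.45% against 2.60%) and DMSO 1 (4.30% against 1.90%).

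Of 40 named tested members, 21 changed sign of their log2 fold change under at least 1 alternative and 19 under none; the cause was not tested. With the length trend removed the values were -0.0050 for Cox5a, -0.00043 for Cox6a1, -0.0063 for Cyc1 and -0.00054 for Sdhd. Cox5a was at -0.00035 with limma-voom, and Cox6a2 at 0.00027 with DESeq2 and 0.0034 with no filter. Over the libraries left out in turn the log2 fold changes ran from -0.040 to 0.025 for Atp5f1a, from -0.049 to 0.036 for Atp5f1b, from -0.077 to 0.012 for Atp5mc1, from -0.0019 to 0.13 for Atp5mf, from -0.30 to 0.44 for Atp5pb, from -0.092 to 0.024 for Cox4i1, from -0.089 to 0.14 for Cox4i2. They ran from -0.033 to 0.050 for Cox5a, from -0.072 to 0.20 for Cox5b, from -0.035 to 0.060 for Cox6a1, from -0.079 to 0.044 for Cox6a2, from -0.10 to 0.0063 for Cox6b1, from -0.024 to 0.12 for Cox8b, from -0.021 to 0.043 for Cyc1. In the rest they ran from -0.026 to 0.11 for Cycs, from -0.17 to 0.093 for Ndufa4l2, from -0.0079 to 0.064 for Ndufb4, from -0.042 to 0.00060 for Sdha, from -0.0016 to 0.040 for Sdhd, from -0.077 to 0.014 for Uqcrc1, from -0.037 to 0.010 for Uqcrfs1. The change of the isoform log2 ratio ran from -0.050 to 0.064 for Cox6a2 to Cox6a1 and from -0.0089 to 0.093 for Atp5mc1 to Atp5mc3.

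The correlations of the deviations of same-numbered libraries were -0.069, -0.044 and -0.045, so the numbers gave no sign of pairing. With the replicate block, 0 genes were called, 604 had an unadjusted p under 0.05, the median member log2 fold change was -0.0010, and the same counts of 1 higher and 1 lower member had an unadjusted p under 0.05. Depth limits the members with few reads: Atp5pb, Cox6b2, Ndufa4l2, Ndufaf2 and the Ndufv3 copy had 95% intervals that reached past 1.5-fold.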
